A study of Homo sapiens with 24 samples.

Results

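The P2Y receptors are G-protein-coupled receptors named for extracellular nucleotides, and the array held a probe for 8 of the 9 family members looked for, P2RY1, P2RY2, P2RY6, P2RY8, P2RY10, P2RY12, P2RY13 and P2RY14, among 30142 genes in all. Members were taken as every probe whose gene name in the scanner output was one of these symbols, which gave 9 probes of 41000, with a pair of probes for P2RY13 and 1 for each other gene. P2RY11 was on the array only as the readthrough transcript PPAN-P2RY11, which lies outside that rule. The family was selected on the silencing ratio of P2RY14 in OCI-Ly3, so the silencing ratios of OCI-Ly3 are given as a description with no test.

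FOXP1, a forkhead transcription factor, was silenced in 4 established lines of diffuse large B-cell lymphoma (DLBCL), DB and K422 of the germinal centre B-cell-like (GCB) subtype and HBL-1 and OCI-Ly3 of the activated B-cell-like (ABC) subtype. Cells were electroporated with siFOXP1 #1 (HSS178308) or siFOXP1 #2 (HSS178309), or with a non-targeting duplex (siCtrl), and RNA was taken after 48 h. Each line and siRNA had 3 replicates, so that there were 24 arrays and 6 per line, and on each the silenced RNA (Cy3) and the siCtrl RNA (Cy5) of one line were hybridised together. As the dyes were never swapped, a dye bias of a probe and an effect of silencing cannot be told apart within a line. Each line is 1 culture model of its subtype, and nothing in the groups separates subtype from line.

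Members of this family sense nucleotides that cells release or leak. ATP and UTP act on P2RY2, ADP on P2RY1, P2RY12 and P2RY13, UDP on P2RY6, and UDP-glucose and related UDP-sugars on P2RY14, which signals through the Gi class of G proteins. P2RY8 and P2RY10 carry the family name for their sequence, and are best known from lymphocytes. P2RY8 couples to Gα13 and keeps B cells within germinal centres, and P2RY10 responds to lysophosphatidylserine.

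The P2RY14 probe lies at chr3:152412749-152412808 of hg18, the build of the files, on the minus strand, in a cluster of related receptors on the long arm of chromosome 3. RefSeq gives the gene a pair of start sites, and the 250 bases before each are shown because P2RY14 was the member whose signal differed most between silenced and control cells. Both run 5′ to 3′ on the minus strand of GRCh38.p14, the first from chr3:151278543-151278792 and the second from chr3:151248992-151249241.
P2RY14 upstream start: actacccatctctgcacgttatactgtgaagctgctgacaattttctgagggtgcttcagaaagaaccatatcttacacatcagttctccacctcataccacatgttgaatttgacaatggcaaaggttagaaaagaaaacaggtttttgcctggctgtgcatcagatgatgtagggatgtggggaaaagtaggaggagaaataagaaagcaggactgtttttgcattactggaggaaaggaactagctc
P2RY14 downstream start: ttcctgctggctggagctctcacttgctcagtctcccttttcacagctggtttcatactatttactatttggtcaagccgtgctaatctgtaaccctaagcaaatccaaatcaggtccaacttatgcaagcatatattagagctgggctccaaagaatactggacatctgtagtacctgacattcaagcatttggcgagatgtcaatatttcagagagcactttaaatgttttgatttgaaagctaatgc
Neither holds any of 4 forkhead-type motifs searched on both strands, so no base is in capitals. The searched window also took in the 50 bases after the start. None of the 9 RefSeq windows of 6 members held a motif, and over all genes 14.1% of 35097 windows did, windows listed on both sex chromosomes being counted once. Of the windows of all genes, 4.93% held the motif TATTTAT, which shares its first 5 letters with the next one. The motif spelled TATTTGT was found in 3.5% of those windows. The third, TGTTTAC, was counted in 3.42% of windows on its own. The last of the motifs, TGTTTAT, was present in 4.24% of all windows. The search describes these letters in these windows, and P2RY2 and P2RY6 had no window in the table. Other spellings were not searched, and the downstream-start sequence holds a spelling that differs from TATTTAT in its last letter only.

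The targeted gene was lower on 6 of 6 arrays in each line, with a log2 ratio (siFOXP1 over siCtrl) of -1.96 in OCI-Ly3, -1.74 in HBL-1, -1.34 in K422 and -2.00 in DB, and siFOXP1 #2 gave the lower ratios throughout. On each array, 57.2% to 64.4% of the probes had a channel flagged by the scanner software as well above background, that is, clear of the local background. The B-cell markers MS4A1, CD79A, CD79B, PAX5 and CD22 were well above background in each line, and 4 of 4 ABC markers were so in HBL-1 and OCI-Ly3 against 1 of 4 in DB and K422. In K422, 3 of 4 T-cell markers (CD3D, CD3E, CD3G and CD2) were well above background, with a summed siCtrl signal from 9292 to 14042 against at most 140.1 in the other lines, and their part in any K422 value was not tested. DB and OCI-Ly3 were scanned in one session and K422 and HBL-1 in another, so levels are compared only within a session.

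Of the 8 genes, P2RY8 alone was detected in all lines, P2RY10 in both ABC lines, and P2RY14 in HBL-1 and in silenced OCI-Ly3. Both channels of P2RY8 cleared the background on 6 of 6 arrays in each line. P2RY10 was so on 6 of 6 arrays in HBL-1 and OCI-Ly3, on 0 of 6 in K422 in either channel, and in DB on 1 of 6 in the siCtrl channel and 0 of 6 in the siFOXP1 channel. P2RY14 reached this level on 5 of 6 siCtrl channels in HBL-1, 1 of 6 in DB, 1 of 6 in K422 and 0 of 6 in OCI-Ly3.

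The other 5 genes were at or near background. P2RY1 and P2RY2, the Gq-coupled ADP and ATP/UTP receptors, were well above background on none of the 24 arrays in either channel. The UDP receptor P2RY6 reached it in OCI-Ly3 on 2 siFOXP1 and 1 siCtrl channels and in K422 on 1 siFOXP1 channel. The ADP receptors P2RY12, the platelet receptor, and P2RY13 each reached it on 1 siFOXP1 channel, in K422 and OCI-Ly3, and the second P2RY13 probe on 1 array in OCI-Ly3 in both channels. Of 4 platelet and megakaryocyte markers (PF4, ITGA2B, GP9 and GP1BA), 1 was well above background in the siCtrl channel on 6 of 6 arrays in each line and PF4 on none. Their summed siCtrl signal ran from 946 to 1324 in K422 and from 817 to 1175 in HBL-1, scanned in one session. In OCI-Ly3 and DB, scanned in the other, it was at most 167 and 186. Line and session cannot be told apart in this split, and the part of these markers in the P2RY12 values was not tested. Where both channels are at background, the scanner software sets the ratio to 0 or uses a surrogate, and P2RY1 in DB and K422, P2RY12 in DB and HBL-1 and P2RY13 in K422 and HBL-1 had a ratio of exactly 0 on 6 of 6 arrays.

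**Figure D1:**
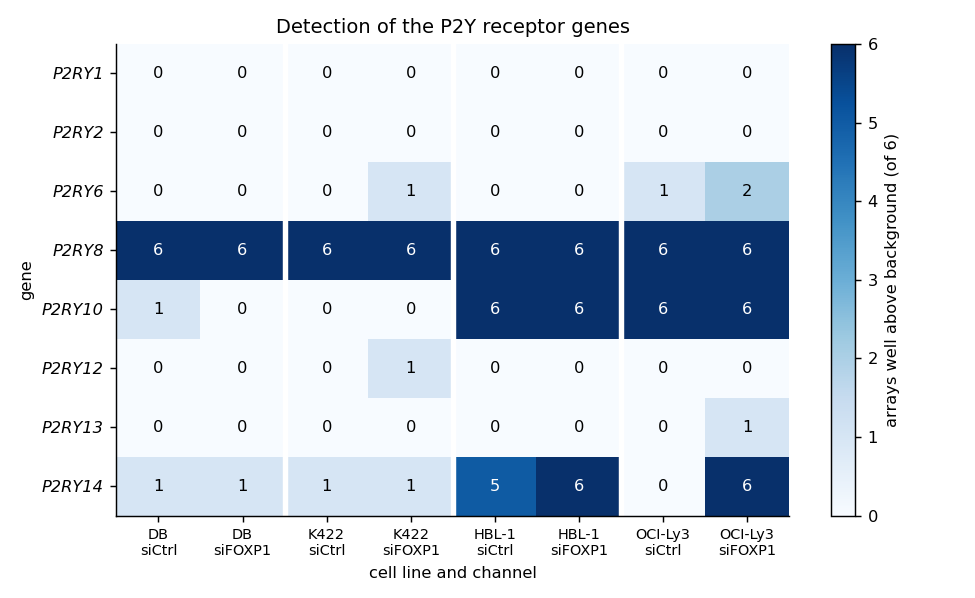
Each cell gives the number of arrays, of 6, on which the gene's probe was well above background, for the siCtrl and siFOXP1 channel of each line (columns) and the 8 P2Y receptor genes (rows, the brightest probe each). P2RY8 was at 6 throughout, P2RY10 at 6 in HBL-1 and OCI-Ly3, and P2RY14 went from 0 in the siCtrl to 6 in the siFOXP1 channel of OCI-Ly3.

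P2RY14 was the member with the largest silencing ratio, and OCI-Ly3 the line that showed it. With siFOXP1 #1, its log2 ratios in OCI-Ly3 were 1.96, 2.83 and 2.96 in replicates 1, 2 and 3. With siFOXP1 #2 they were 4.24, 3.00 and 4.86. All 6 were above 0 and the lowest value of #2 lay just above the highest of #1. The mean was 3.31 ± 1.05 (SD, n = 6 arrays), the value that led to the choice of the family. Its siCtrl signal was not well above background on any OCI-Ly3 array, so the ratio of any array has no firm denominator, and against the lowest measurable siCtrl signal on the arrays P2RY14 was at least 3.31-fold higher on silencing, a linear fold that happens to share its digits with the mean log2 ratio. After normexp background correction with an offset of 50 and loess, which pulls dim probes towards 0, the mean log2 ratio was 0.66. 

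The signals behind that ratio differed between the ABC lines. In OCI-Ly3, the siCtrl signal ran from 3.08 to 9.44 scanner units. The siFOXP1 signal was 30.5, 42.0 and 30.5 with siFOXP1 #1, and 79.3, 75.3 and 89.4 with #2. In HBL-1, P2RY14 was measurable before silencing, with siCtrl signals from 18.8 to 49.7. There the siFOXP1 signal was 61.8, 31.8 and 21.8 with #1 and 89.4, 60.3 and 46.4 with #2. Thus every OCI-Ly3 pair had the silenced signal clear of the control signal, while in HBL-1 the signals of different arrays overlapped and the ratio was above 0 within each array. Channels of the 2 lines were scanned in different sessions and are given side by side without a comparison.

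**Figure D2:**
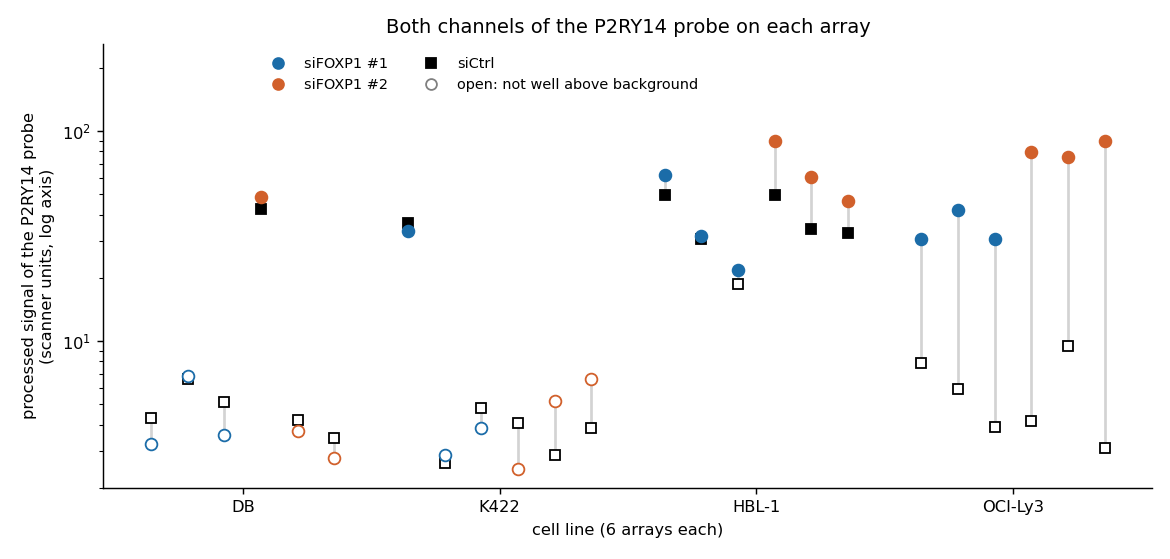
Processed signal of the P2RY14 probe (scanner units, log axis) on each of 24 arrays, 6 per line in the order siFOXP1 #1 then #2, with a grey line joining the siCtrl (squares) and siFOXP1 (circles) channel of an array and open symbols where the channel was not well above background. In OCI-Ly3 the siCtrl squares are open and lie between 3.08 and 9.44 while the siFOXP1 circles are filled and lie between 30.5 and 89.4.

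In HBL-1, the other ABC line and one that the choice of P2RY14 did not use, the ratio was smaller. The log2 ratios were 0.31, 0.06 and 0.22 with siFOXP1 #1 and 0.86, 0.82 and 0.50 with #2. All 6 were above 0, and the 3 arrays of #2 lay above the 3 of #1. The mean of 0.46 ± 0.33 (SD, n = 6 arrays; SE 0.17, limma adjusted p = 0.0481 over all genes) stayed short of the log2 limit of 0.5, so P2RY14 was not called in HBL-1. That SE pools the spread of P2RY14 over the 4 lines, OCI-Ly3 included, and is not that of HBL-1 alone. With siFOXP1 #2 alone the mean was 0.73 (limma adjusted p = 0.0360) and the gene was called, with #1 alone it was 0.20 (adjusted p = 0.757), and without HBL-1 replicate 1 it was 0.40 (adjusted p = 0.243). After normexp and loess it was 0.09 (adjusted p = 0.228).

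In the GCB lines P2RY14 was mostly unmeasured. In DB its log2 ratio was exactly 0 on 4 of 6 arrays, with a mean of 0.04 ± 0.07. In K422 it was exactly 0 on 3 of 6, with 0.86 and 0.77 on arrays of siFOXP1 #2 where neither channel was well above background, and a mean of 0.25 ± 0.44 (limma adjusted p = 0.363). One DB array (siFOXP1 #2, replicate 1) had signals of 48.3 and 42.5 in the siFOXP1 and siCtrl channels, and one K422 array (siFOXP1 #1, replicate 1) 33.4 and 36.5, where the other 5 arrays of each line stayed at or under 6.85. Both of these arrays were high in both channels, with log2 ratios of 0.18 and -0.13. The difference in log2 ratio between HBL-1 and K422, which lie in the same scan session, was 0.21 (SE 0.24, limma adjusted p = 0.696), and the difference of OCI-Ly3 from the GCB lines was not tested because the gene was chosen for its ratio there.

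The siRNAs differed in how far they lowered FOXP1, and P2RY14 is set beside that. In OCI-Ly3, FOXP1 was at a log2 ratio of -1.48 ± 0.08 with siFOXP1 #1 and -2.45 ± 0.10 with #2 (SD, n = 3 arrays each), and P2RY14 at 2.59 ± 0.54 and 4.03 ± 0.95. These P2RY14 ratios are those that led to the choice of the family and rest on siCtrl signals at background, so their difference is given with no test. In HBL-1, FOXP1 was at -1.29 ± 0.25 and -2.19 ± 0.29, and P2RY14 at 0.20 ± 0.13 and 0.73 ± 0.19. The order was the same in the GCB lines, where P2RY14 was mostly at background, with -0.04 ± 0.07 for #1 and 0.54 ± 0.47 for #2 in K422 and 0.02 ± 0.03 and 0.06 ± 0.11 in DB. The difference in P2RY14, #2 minus #1, was 0.53 in HBL-1 (SE 0.34, limma adjusted p = 1), 0.59 in K422 and 0.05 in DB, and was called in none of the 3. This SE, too, is pooled over the 4 lines with OCI-Ly3 among them, so it does not measure the spread within HBL-1. No member of the family was called between the siRNAs in HBL-1, K422 or DB, against 0.173%, 0.159% and 0.302% of genes, and by limma 0 of 8 had an unadjusted p under 0.05 in each. In OCI-Ly3, where 0.192% of genes were called, the count of members called was also 0. No count by unadjusted p is given for that line, whose P2RY14 ratios led to the choice of the family. In DB, where the replicate numbers paired the arrays, the replicate number as a block raised the share of all genes called to 0.906%, and again 0 of 8 members were called.

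P2RY8 had ratios near 0 and was called in no line. Its log2 ratio was 0.14 ± 0.28 in OCI-Ly3, 0.15 ± 0.10 in HBL-1, 0.11 ± 0.15 in K422 and 0.03 ± 0.40 in DB (SD, n = 6 arrays). In HBL-1 the 6 ratios lay between 0.03 and 0.29, all above 0 (limma adjusted p = 0.329), but their mean turned to -0.19 after normexp with median centring. In DB they ran from -0.48 to 0.57, with 3 above and 3 below 0, and K422 and OCI-Ly3 had 5 and 4 of 6 above 0. The SE of each line mean was 0.11. Within replicate numbers, the P2RY8 ratio was lower with siFOXP1 #2 than with #1 in 3 of 3 pairs in OCI-Ly3, K422 and DB and in 1 of 3 in HBL-1. With the replicate number as a block, the difference was -0.18 in DB (limma adjusted p = 0.142, unadjusted 0.00890), where the numbers were taken to pair the arrays. It was -0.14 in K422 (limma adjusted p = 0.410, unadjusted 0.0270) and -0.31 in OCI-Ly3, where they were not. The OCI-Ly3 value is given with no test. Without the block the unadjusted limma p was 0.416 in DB and 0.517 in K422, and none was called either way.

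P2RY10 had ratios near 0 where it could be measured. In HBL-1 its log2 ratio was 0.16 ± 0.27, from -0.20 to 0.51 (limma adjusted p = 0.782). In OCI-Ly3 it was -0.03 ± 0.12, from -0.15 to 0.17, the tightest set of the 3 detected members in that line. In DB the ratios were -0.22, -1.89 and -1.22 with siFOXP1 #1 and -0.45, -1.34 and -1.17 with #2, all below 0, and the mean of -1.05 ± 0.62 was called (limma adjusted p = 0.0130). That call rested on signals from 6.75 to 25.7 of which 1 of 12 was well above background, so no fold is given. P2RY10 in DB was not called with either siRNA alone, without DB replicate 2 (-0.77, limma adjusted p = 0.157) or replicate 3 (-0.97, adjusted p = 0.0653), with the methods' t-test, with slide as a block, or after normexp. Without DB replicate 2 the member called was P2RY2, at -0.91 (limma adjusted p = 0.0199) and at background in both channels. In K422 neither channel was measurable and the ratios ran from -1.48 to 1.17.

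**Figure D3:**
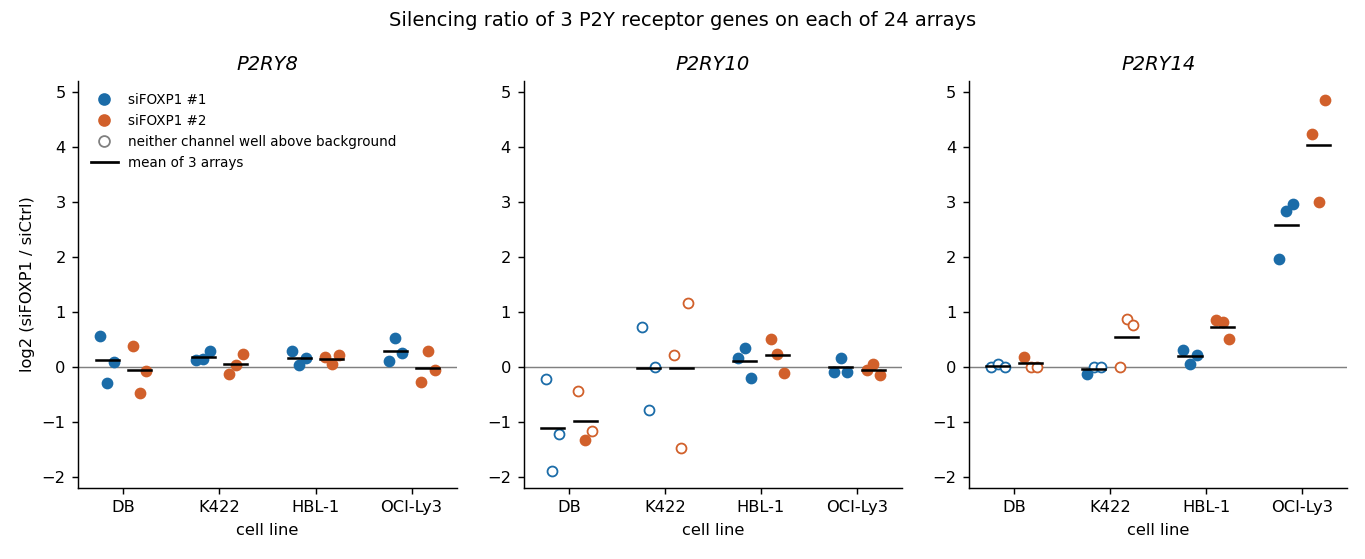
Log2 ratio of siFOXP1 over siCtrl on each array (points, siFOXP1 #1 blue, #2 orange) by cell line for P2RY8, P2RY10 and P2RY14, with the mean of 3 arrays as a bar and open points where neither channel was well above background. P2RY8 lay between -0.48 and 0.57 throughout, and P2RY14 in OCI-Ly3 between 1.96 and 4.86.

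By line, 1 of 8 members was called lower in DB (P2RY10, at background, as above), where 0.829% of all genes were called lower and 2.16% in either direction. None of 8 was called in K422, where 4.44% of genes were, and none in HBL-1, where 9.9% were. By limma, 1 of 8 had an unadjusted p under 0.05 in each of these lines, P2RY12 in K422 and P2RY14 in HBL-1, and the methods' t-test also called 0 in both. In K422 the smallest unadjusted limma p among members belonged to P2RY12 (log2 ratio 0.54 ± 0.83, adjusted p = 0.0946), measurable on 1 of 12 channels there, and that gene was called when K422 replicate 3 was left out, at 0.99. In OCI-Ly3, 1 of 8 was called higher, P2RY14, beside 2.8% of genes called higher and 4.42% in either direction, a count fixed by the choice of the family. When OCI-Ly3 replicate 1 was left out, P2RY1 and P2RY6 were called lower there as well, both on signals mostly at background. None of 8 differed between HBL-1 and K422 in its silencing ratio, against 4.34% of genes, and 0 of 8 had an unadjusted limma p under 0.05. The remaining ratios of the background genes had line means from -0.51 (P2RY2 in DB) to 0.14 (P2RY6 in K422).

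Before silencing, P2RY10 separated each ABC line from the GCB line of its scan session. The siCtrl level, log2 of the Cy5 signal relative to the array's 75th percentile with arrays of the same line and replicate number averaged, was -1.10, -1.10 and -1.08 in OCI-Ly3 and -5.07, -4.76 and -5.10 in DB. In HBL-1 the levels were -3.39, -3.30 and -3.24, and in K422 -7.30, -6.42 and -7.38. No value of an ABC line overlapped one of its GCB partner. The difference in log2 level was 3.89 for OCI-Ly3 over DB (SE 0.22, limma adjusted p = 7.25e-08) and 3.72 for HBL-1 over K422 (SE 0.22, adjusted p = 1.18e-07). With K422 not well above background on any array, P2RY10 was at least 4.45-fold higher in HBL-1. In DB, 1 of 6 arrays was above background, so the difference there compares a measured with a mostly unmeasured level.

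P2RY8 ran the other way at smaller size. Its siCtrl level was 2.20, 1.30 and 1.97 in OCI-Ly3 and 2.63, 3.09 and 3.01 in DB, a log2 difference of -1.09 (SE 0.23, limma adjusted p = 0.00221) that was called. In HBL-1 it was 2.81, 2.59 and 2.67 and in K422 3.63, 3.40 and 3.16, a difference of -0.70 (SE 0.23, limma adjusted p = 0.0267) short of the log2 limit of 1 set for levels. In both sessions the 3 ABC values lay below the 3 GCB values.

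P2RY14 had a siCtrl level of -4.12, -4.61 and -5.12 in HBL-1 against -5.86, -7.90 and -7.58 in K422. The difference of 2.49 (SE 0.59, limma adjusted p = 0.00474) was called, with no overlap between the lines, although 5 of 6 HBL-1 arrays and 1 of 6 K422 arrays were above background. This SE pools the spread over the 4 lines and is not that of HBL-1 and K422 alone. The difference was not called on the arrays of siFOXP1 #1 alone, which include the bright K422 array, nor after normexp of the Cy5 channel. In OCI-Ly3 the level was -6.41, -6.20 and -7.39 and in DB -5.62, -7.00 and -7.33, overlapping and near background in both.

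**Figure D4:**
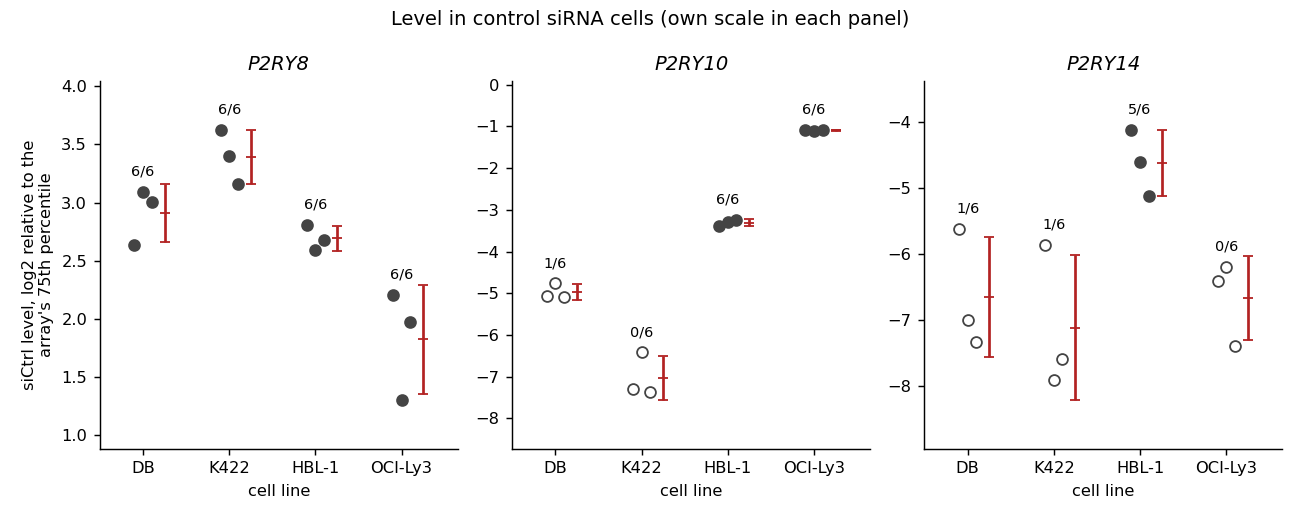
Level in siCtrl cells (log2 of Cy5 signal relative to the array's 75th percentile) of P2RY8, P2RY10 and P2RY14 by line, as 3 values per line with their mean and SD in red, each panel on its own scale; the label gives the arrays of 6 with the siCtrl channel well above background, and symbols are open under 5 of 6. P2RY10 lay at -1.09 in OCI-Ly3 and -3.31 in HBL-1 against -4.98 in DB and -7.03 in K422, and P2RY14 at -4.62 in HBL-1 against -7.11 in K422.

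In all, 4 of 8 members had a level that differed between OCI-Ly3 and DB and 2 of 8 between HBL-1 and K422, where 25.8% of all genes did in each comparison. P2RY1 and P2RY6 made up the other OCI-Ly3 calls, with differences of 1.06 and 1.57 (limma adjusted p = 0.000919 and 0.00208), but 0 and 1 of 6 OCI-Ly3 siCtrl channels were above background and none in DB, so no fold is given. With a filter for siCtrl signal well above background on at least 3 arrays, P2RY8 and P2RY10 remained.

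The chromosomal neighbours of P2RY14 include other receptors, and GPR171 had raised ratios in the same line. The probes of GPR171, P2RY14, P2RY13 and P2RY12 lie within 139 kb on hg18. GPR171 had log2 ratios in OCI-Ly3 of 0.33, 0.69 and 0.64 with #1 and 1.49, 0.82 and 0.75 with #2, with 1 of 6 siCtrl channels above background, and its values with #2 all lay above those with #1. P2RY13 and P2RY12, further along the same stretch, stayed at background with mean log2 ratios of 0.08 and -0.23. MED12L, the gene that spans the cluster, was at 0.25 ± 0.70 in OCI-Ly3, measurable on 1 of 12 channels. In a window of 1000 kb on each side of the P2RY14 probe, chosen after the values were seen, 25 genes or transcripts are reported here. Of these, P2RY14, around which the window was drawn, and GPR171 were called in OCI-Ly3, beside 4.42% of all genes. The others there had means from -0.32 to 0.26. In HBL-1 the calls were AK123861 and AF087980, beside 9.9% of genes, and in K422 AK123861 and THC2659529, beside 4.44%. AF087980 in HBL-1 and THC2659529 in K422 were at background in both channels. In HBL-1, where it was measurable, GPR171 had a mean of -0.06.

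**Figure D5:**
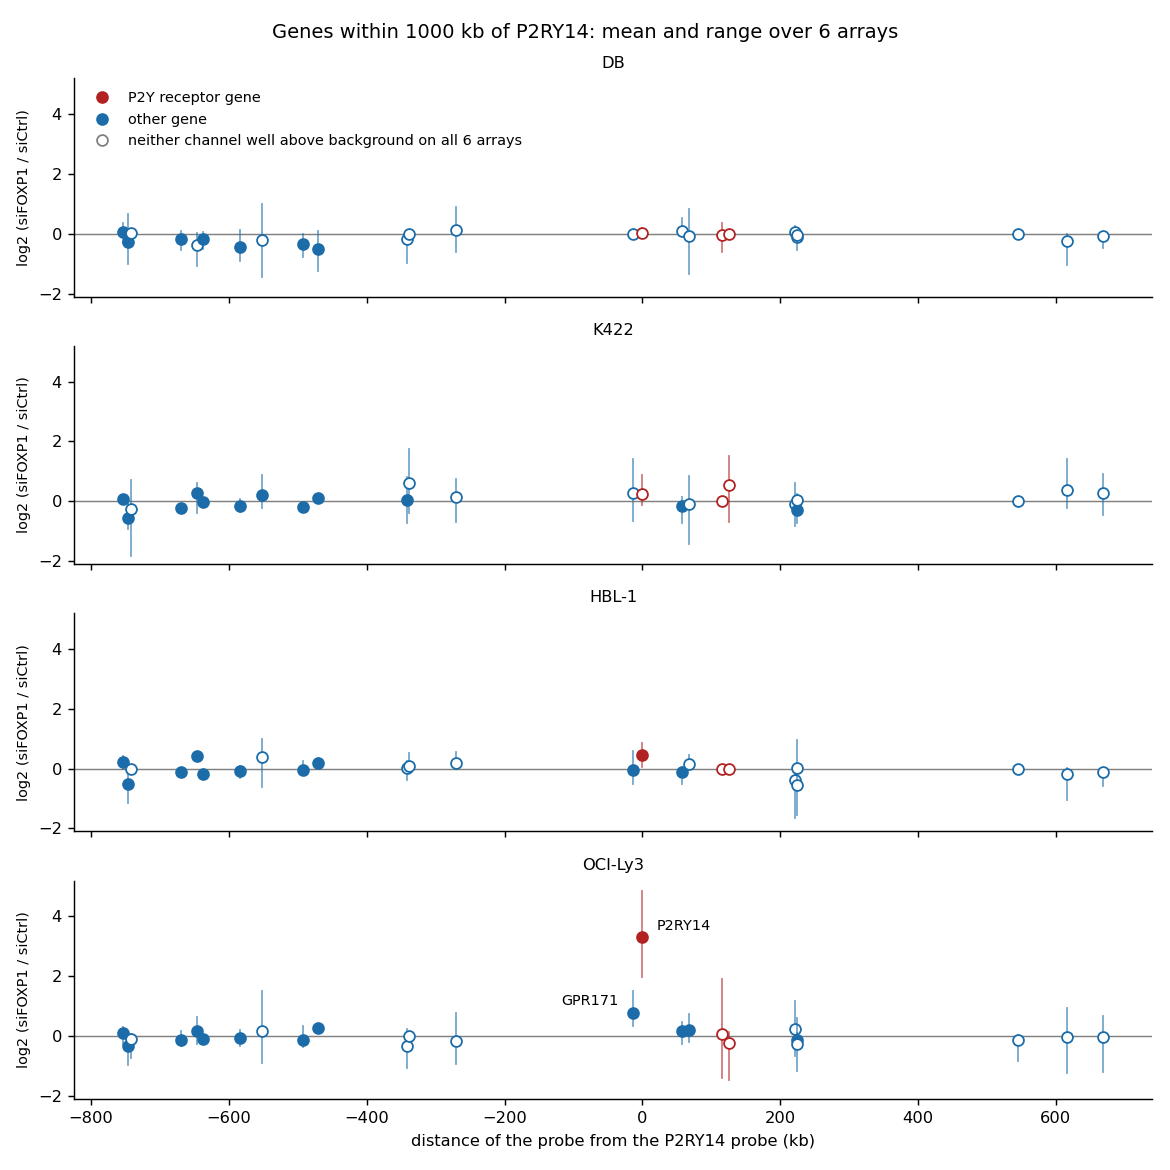
Mean log2 ratio of siFOXP1 over siCtrl (points) with the range over 6 arrays (lines) for 25 genes or transcripts against the distance of their probe from the P2RY14 probe in kb, a panel per line, with P2Y receptor genes in red and open points where neither channel was well above background on all 6 arrays. In OCI-Ly3, P2RY14 at 3.31 and GPR171 at 0.78 stand above the rest of those plotted, and in the other lines the highest mean in the window is 0.60.

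The genes whose 24 ratios ran most like those of P2RY14 were OLFML2A, S1PR1, ABCA1, CASP9 and ZYG11A, with Pearson correlations of 0.914, 0.896, 0.888, 0.882 and 0.877 among 18404 genes searched. The 6 OCI-Ly3 arrays stand apart from the other 18 and set these values, and within OCI-Ly3 alone (n = 6 arrays) the correlations were from 0.564 to 0.839. Within HBL-1, where P2RY14 was also measurable, they were -0.849 for OLFML2A, -0.830 for S1PR1, -0.229 for ZYG11A and 0.717 for CASP9. In K422 and DB, where P2RY14 was mostly at background, they ran from -0.974 to 0.529 and from -0.275 to 0.966, ZYG11A giving the lowest in K422 and the highest in DB. None is given for ABCA1 in HBL-1 or for OLFML2A in K422 and DB, where the ratios had no spread. OLFML2A had a mean log2 ratio of -0.03 in HBL-1. Spearman's correlation over 24 arrays, many of them tied at 0, was from 0.284 to 0.653. S1PR1, the sphingosine-1-phosphate receptor that draws lymphocytes out of lymphoid tissue, had a mean log2 ratio of 1.43 in OCI-Ly3, where both channels were measurable on 6 of 6 arrays, and -0.31 in HBL-1. ABCA1, the cholesterol exporter, had 1.39 and ZYG11A 2.74 in OCI-Ly3, both with 0 of 6 siCtrl channels above background. OLFML2A, at 1.20, and CASP9, the initiator caspase of the mitochondrial death pathway, at 0.65, were measurable in both channels.

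The genes that supply or clear the ligands of these receptors and relay their signals were counted beside the share of all genes called in either direction, which was 4.42% in OCI-Ly3, 9.9% in HBL-1, 4.44% in K422 and 2.16% in DB. Of 21 genes for nucleotide release, breakdown and ligand supply, 1 was called in OCI-Ly3, 3 in HBL-1, 2 in K422 and 0 in DB, all higher. ADA, which turns adenosine into inosine, rose by a log2 ratio of 1.35 ± 0.87 in K422 (SE 0.16, limma adjusted p = 1.50e-05), with 5 arrays above and 1 below 0. The SD holds any difference between the siRNAs, which the SE and p leave out. The rise of ADA was 0.53 ± 0.09 in HBL-1 (limma adjusted p = 0.0172). UGP2, the enzyme that makes UDP-glucose, a P2RY14 ligand, rose by 0.66 ± 0.19 in K422 (limma adjusted p = 4.28e-07). In HBL-1, ENTPD4, a nucleotidase of intracellular membranes, rose by 0.76 ± 0.25 and ENPP2, which makes lysophosphatidic acid, by 0.56 ± 0.16 (limma adjusted p = 1.27e-07 and 0.000730). The call in OCI-Ly3, named after its value was seen, was SLC17A9 (C20orf59 in the array's naming), the vesicular ATP transporter, at 0.54 ± 0.17. Median log2 ratios of this list lay between 0.00 and 0.08, against 0 over all genes tested.

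Of 18 G proteins and effectors, 1 was called in OCI-Ly3, 2 in HBL-1, 1 in K422 and 0 in DB. GNAI2, the Gi subunit through which P2RY14 and S1PR1 can act, had log2 ratios of 0.59 ± 0.12 in OCI-Ly3, 0.57 ± 0.08 in HBL-1 (limma adjusted p = 2.44e-06), 0.57 ± 0.14 in K422 (adjusted p = 8.55e-06) and 0.48 ± 0.22 in DB (adjusted p = 0.000100). ARHGEF1, a guanine nucleotide exchange factor downstream of Gα13 and so of P2RY8, had 0.45 ± 0.09 in OCI-Ly3, 0.67 ± 0.14 in HBL-1 (limma adjusted p = 3.16e-07), 0.49 ± 0.18 in K422 (adjusted p = 2.55e-05) and 0.45 ± 0.15 in DB (adjusted p = 0.000144). Both genes were above 0 on 6 of 6 arrays in each line. In the lines where they were not called, the values fell short of the log2 limit of 0.5 rather than of the p threshold. With no dye swap, a dye bias of these probes and an effect of silencing cannot be told apart. Other processing settings were not examined for these genes. The median log2 ratio of the list lay between 0.03 and 0.11.

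Of 4 adenosine receptors by the array's naming, 2 were called in HBL-1, where 9.9% of all genes were, both higher. The transcript of the ADORA3 entry is now listed under TMIGD3. ADORA2B had a mean log2 ratio of 1.52 ± 0.37 (limma adjusted p = 2.37e-05), with 1 of 6 siCtrl and 6 of 6 siFOXP1 channels above background, and ADORA2A one of 0.56 ± 0.19 (limma adjusted p = 2.74e-07) with both channels measurable. None of the 4 was called in the other lines. Of 7 ATP-gated P2X channels none was called in DB, K422 or HBL-1, and the 1 called in OCI-Ly3, P2RX6, named after its value was seen, was at background in both channels on all 6 arrays. The medians ran from -0.05 to 0.38 for the adenosine receptors and from 0.01 to 0.20 for the P2X channels.

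Of 13 related receptors, 3 were called in HBL-1, 2 in K422 and 1 in DB, and in OCI-Ly3 the 2 calls were S1PR1 and GPR171, beside the shares of 9.9%, 4.44%, 2.16% and 4.42% of all genes. S1PR2, which like P2RY8 couples to Gα13 and confines germinal centre B cells, was called higher in K422 (0.77 ± 0.18, limma adjusted p = 9.45e-07) and HBL-1 (0.54 ± 0.49, limma adjusted p = 1.00e-05). In HBL-1, 5 arrays were above and 1 below 0 for S1PR2, and the SE of 0.07 behind its p leaves out any difference between the siRNAs. GPR183, the oxysterol receptor that guides B cells to the follicle edge, named after its values were seen, was called lower in K422 (-0.73 ± 0.45, limma adjusted p = 0.000130) and higher in HBL-1 (0.63 ± 0.12, limma adjusted p = 0.000208). In K422, 5 arrays were below and 1 above 0 for GPR183. The median of these receptors was 0.17 in OCI-Ly3, -0.01 in HBL-1 and 0.00 in K422 and DB.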

How the data were processed

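Each of 24 arrays compared silenced RNA (Cy3) with siCtrl RNA (Cy5). The authors scanned the arrays and deposited Feature Extraction output (10.5.1.1 for DB and OCI-Ly3, 10.7.3.1 for K422 and HBL-1, per the file headers), which gives intensity for either dye and the log10 ratio (Cy5 over Cy3). They had subtracted background and normalized each array, linearly and by loess. The authors also deposited a table of log2 values of 41078 entries, which ran with the turned ratios (correlation from 0.804 to 0.998 per array) and was an alternative. Its scale and direction were found from that match, and its centring is not stated in the sources used here.

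Ratios were turned to log2(siFOXP1/siCtrl) by dividing the log10 ratio by log10 of 2 and changing its sign. Of 45015 spots, 1639 control spots were left out and 113 to 469 outlier spots set to missing. Spots of a probe were averaged, and the brightest probe stood for a gene. A probe was well above background where all its spots were. In R 4.3.3, limma 3.58.1 fitted a mean per line and siRNA over all arrays. For ratios, the SE of a gene rests on the spread around these means pooled over the 4 lines. The SE of a line mean leaves out any difference between the siRNAs of that line. A call needed a Benjamini-Hochberg adjusted p under 0.05 over all genes and a log2 ratio of at least 0.5 in size, or 1 for siCtrl levels. For siCtrl levels, arrays of a line with the same replicate number were averaged, although the labels do not state that they share a control RNA. The SE of a level difference is likewise pooled over the 4 lines, and so over both scan sessions. Replicates are independent experiments per the series design. Deviations of same-numbered arrays correlated from 0.165 to 0.284 in DB, all over 0.1, so the numbers were taken to pair the arrays there, and from 0.0468 to 0.213 in the other lines, with a pair under 0.1 in each. A lower bound divides the bright channel's mean, after quantile scaling of average intensities between arrays, by the lowest signal well above background.

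Members and gene lists were chosen with earlier results of these data known. Some genes are not reported here, and counts over lists and the chromosomal window leave them out. Named genes are the members, FOXP1, at most 4 called and measurable genes per list with the largest ratios, and the 5 genes most like P2RY14 among those above background on at least 12 arrays. On simulated data for 30142 genes, the fit recovered 98% of changed genes in OCI-Ly3, 97% in HBL-1, 96.5% in K422 and 98.5% in DB, and 83% for the siCtrl level of HBL-1 against K422. These rates were not split by signal, and recovery of genes at background, where most members lay, was not tested. The number of arrays limits the precision.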

Additional observations from a re-analysis of the deposited data

Results flagged for a closer look

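In 6 of 26 sets of 6 arrays of a member and line with any spread, 1 array lay apart from the others by Dixon's criterion. Its nominal rate of 1 in 20 sets (1.3 of 26) does not hold where the software sets ratios to 0, so the counts are not compared. In 5 of the 6 flagged sets neither channel was well above background on the array that lay apart. They were P2RY1 in HBL-1 (log2 ratio -0.40, siFOXP1 #2 replicate 3), P2RY2 in K422 (0.25, siFOXP1 #2 replicate 3), in HBL-1 (-1.41, siFOXP1 #2 replicate 3) and in OCI-Ly3 (-1.11, siFOXP1 #2 replicate 1), each with exactly 0 on the other 5 arrays, and P2RY12 in OCI-Ly3 (-1.47, siFOXP1 #1 replicate 2). The sixth was P2RY14 in DB, at 0.18 on the array of siFOXP1 #2 replicate 1, the one DB array on which its probe was well above background.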

How the results depend on the processing

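The log2 ratio of P2RY14 in OCI-Ly3 was above 0 in 24 of 24 settings, counting the one reported, from 0.66 with normexp and loess to 4.03 with siFOXP1 #2 alone. The family was chosen for this ratio and the settings rework the same arrays, so that count and its sign are a description and no test. Settings that leave out a replicate of another line are among them and cannot change this ratio. Of 230 alternative counts of members, 213 stayed within 1.5 times the count reported and 17 did not. These include settings that leave out a replicate of another line, which cannot move a line's own estimates, so the tally is no measure of stability. Neither P2RY10 in DB nor P2RY14 in OCI-Ly3, the members called, changed sign in any setting. In DB, 0 members were called with normexp and loess, normexp and median centring, slide as a block, siFOXP1 #1 alone, siFOXP1 #2 alone and the methods' t-test. In HBL-1, 1 member was called with siFOXP1 #2 alone. Between the siRNAs in OCI-Ly3, 1 differed with normexp and loess, P2RY14, whose ratios there led to the choice of the family. For siCtrl levels of OCI-Ly3 against DB, 1 member was called with normexp of Cy5 and 2 with the filter on dim probes. For HBL-1 against K422, 0 were called with normexp of Cy5 and 1 on the arrays of siFOXP1 #1 alone. The cause was not tested, apart from the filter, which tests fewer genes, and single siRNAs, which have fewer arrays. Leaving out each replicate gave 1 to 3 called members in OCI-Ly3, 0 to 0 in HBL-1, 0 to 1 in K422, 0 to 1 in DB (P2RY2 in place of P2RY10 without DB replicate 2), 0 to 1 between HBL-1 and K422 and between the siRNAs in OCI-Ly3, and 3 to 4 and 2 to 3 for the siCtrl levels.

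The replicate number as a block left the members called at 1 in OCI-Ly3, 0 in HBL-1, 0 in K422 and 1 in DB, and no member count moved. Every array correlated best with the same-numbered array of its line, a hint from the data where the numbers were not taken as pairs. Over all genes the block moved calls from 652 to 472 in DB and, between the siRNAs in DB, from 91 to 273.

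Scaling moved the calls over all genes. With normexp and loess 308, 978, 80 and 254 genes were called in OCI-Ly3, HBL-1, DB and K422, against 1332, 2985, 652 and 1338. The share of calls that were higher, 63.4%, 57.9%, 61.7% and 52.8% in that order, was 55.1%, 7.79%, 22.8% and 16.5% with normexp and median centring, 76.9%, 70.8%, 61.3% and 61.4% with normexp and loess, and 45.8%, 53.2%, 23.9% and 42.1% in the deposited table. Most members were dim, and signal over background limits what can be said of them.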

Other observations

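The readthrough transcript PPAN-P2RY11, which shares sequence with PPAN and P2RY11 and so cannot assign its signal to either, cleared the background in both channels on 6 of 6 arrays in each line. Its log2 ratio was 0.33 ± 0.29 in OCI-Ly3, 0.52 ± 0.22 in HBL-1, 0.25 ± 0.23 in K422 and 0.34 ± 0.21 in DB (SD, n = 6 arrays), above 0 on 5, 6, 6 and 6 arrays, and was called in HBL-1 (limma adjusted p = 0.000122). P2RY4, a UTP receptor whose symbol was not among those looked for, had mean log2 ratios of 0.18, -0.01, 0.08 and 0.49 in the same order and was well above background on 0 to 3 of 6 siCtrl channels per line.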
